A study of Mus musculus with 8 samples.

Results

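The genes of sphingomyelin and ceramide metabolism were examined in RNA from the prefrontal cortex (PFC) of mice overexpressing either Rnf146 or eGFP. The set holds 10 genes of the 15039 in the deposited table, namely *Smpd1*, *Smpd2*, *Smpd3*, *Smpd4*, *Sgms1*, *Sgms2*, *Asah1*, *Cers2*, *Cers6* and *Sptlc2*, found by gene symbol, and all 10 had values. The genes were chosen by their role in the pathway with the Rnf146-minus-eGFP differences of these same libraries already known. Those differences are therefore given for the 10 genes as a description. Where the fit over all genes calls one of them, that call describes the table too and is not independent evidence.

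The mice were wild-type C57BL/6NCrljOri males injected on both sides of the PFC at 6 weeks of age. One group received an AAV2/1 vector carrying mouse Rnf146 and eGFP, the other a vector carrying eGFP alone, and both vectors used the human synapsin (hsyn) promoter, which is active in neurons. RNA was extracted from dissected PFC 4 weeks after injection, giving 4 libraries in each group, numbered 1 to 4. The tissue held infected and uninfected neurons as well as glia and vessels. The paper states that the Rnf146 mice taken for sequencing had been seen to overexpress Rnf146 and to have social deficits. It states no such choice for the eGFP mice.

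Sphingomyelin is a major lipid of the plasma membrane and of myelin, and ceramide is both its precursor and its breakdown product. Serine palmitoyltransferase starts the pathway, ceramide synthases attach a fatty acid, sphingomyelin synthases turn ceramide into sphingomyelin, and sphingomyelinases release the ceramide again. Ceramidases then split ceramide into a fatty acid and sphingosine, the precursor of the signaling lipid sphingosine 1-phosphate. In the brain, ceramides with very long fatty acids are needed by oligodendrocytes for stable myelin, and loss of *SMPD4* in humans causes a neurodevelopmental disorder with a small brain.

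The promoters of *Smpd4*, *Smpd1* and *Smpd2* are shown because these genes encode enzymes of the same reaction. Of these, only the value of *Smpd4* differed in the same direction in all 4 pairs of libraries. *Smpd3* encodes another enzyme of this reaction but had no promoter entry, so it is missing from the comparison. Each sequence runs 5′ to 3′ from 250 bases before to 50 bases after a RefSeq transcription start (RefSeq table of GRCm38.p6), and was placed on GRCm39 by an exact match. Capitals mark the core letters of the TCF/LEF motif, CTTTGA or its reverse complement TCAAAG, searched on both strands. They are chr16:17436968-17437267 on the plus strand for *Smpd4*, chr7:105203317-105203616 on the plus strand for *Smpd1* and chr10:41366287-41366586 on the minus strand for *Smpd2*.
Smpd4: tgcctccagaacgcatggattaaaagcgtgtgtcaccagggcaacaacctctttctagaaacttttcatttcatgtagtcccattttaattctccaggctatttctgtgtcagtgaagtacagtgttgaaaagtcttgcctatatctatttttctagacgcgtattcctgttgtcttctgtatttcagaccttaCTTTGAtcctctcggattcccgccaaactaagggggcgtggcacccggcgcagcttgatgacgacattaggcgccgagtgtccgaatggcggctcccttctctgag
Smpd1: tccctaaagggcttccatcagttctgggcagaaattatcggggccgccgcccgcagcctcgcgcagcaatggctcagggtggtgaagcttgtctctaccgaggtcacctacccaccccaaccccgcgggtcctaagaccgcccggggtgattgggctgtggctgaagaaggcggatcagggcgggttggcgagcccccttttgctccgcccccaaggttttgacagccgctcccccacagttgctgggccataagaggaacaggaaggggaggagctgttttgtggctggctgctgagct
Smpd2: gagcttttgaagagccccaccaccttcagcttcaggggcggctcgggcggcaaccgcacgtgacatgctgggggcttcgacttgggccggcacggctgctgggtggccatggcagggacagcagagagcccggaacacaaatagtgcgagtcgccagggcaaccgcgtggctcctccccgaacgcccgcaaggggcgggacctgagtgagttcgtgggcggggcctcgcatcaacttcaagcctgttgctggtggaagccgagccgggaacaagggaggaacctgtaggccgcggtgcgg

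The *Smpd4* promoter held the motif once, beginning at position -56 from the start, and the promoters of *Smpd1* and *Smpd2* did not hold these letters. The motif was found in 5257 of the 32851 promoters (16%) of the RefSeq table. Of the 17 promoter entries, which cover 8 of the 10 genes, 2 held it, the one of *Smpd4* and one of the 6 of *Sgms2*. The *Smpd4* window had a GC content of 47.3% and 14 CpG dinucleotides, against 63.0% and 16 for *Smpd1* and 67.0% and 25 for *Smpd2*. The medians over all promoters were 52.7% and 7, so *Smpd4* lay below the median GC content and above the median CpG number. A match of letters is a description and shows neither binding nor a cause.

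The deposited values are on a log2 scale, and the lowest value of any gene and library was 7.86, with gene means from 8.20 upward. On a scale with such a floor, differences of weakly expressed genes are compressed. For every gene, the values of same-numbered eGFP and Rnf146 libraries added up to a constant, with a largest spread of 1.4e-13. Each gene thus carries a mean and 4 pair differences, and a difference always means Rnf146 minus eGFP within a pair on this scale. Read depth is unknown, and the sources used here do not say whether values were scaled by transcript length. Levels are therefore not ranked between genes. *Rnf146* itself, read from the vector and the endogenous gene under 1 symbol, had values of 10.35 to 10.50 in eGFP libraries and 13.01 to 13.17 in Rnf146 libraries, a mean difference of 2.64 ± 0.13 (SD over 4 pairs). Of the listed markers of cortical excitatory neurons, 10 of 10 had values. So did all listed markers of the other cell types, so having values does not identify the tissue.

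The sphingomyelinases did not move together. Among them, *Smpd4* was lower in Rnf146-overexpressing mice in every pair, *Smpd1* and *Smpd2* had mean differences close to 0, and *Smpd3* had a positive mean that came mainly from 1 pair. With the same fit over all genes (limma with the pair as a block, adjusted p of 0.1 or less), 1 of the 10 genes was called, *Smpd4*, and it was lower. In the same fit, 1.25% of all genes were called and 0.432% were called lower. As the genes were selected on this contrast, neither that count nor the call is a test of them.

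*Smpd4* (GRCm39 chromosome 16, 17437215 to 17462692, plus strand) encodes neutral sphingomyelinase 3, an enzyme of the endoplasmic reticulum and nuclear envelope. Its values were 11.64, 11.69, 11.58 and 11.64 in the eGFP libraries 1 to 4 and 11.32, 11.27, 11.38 and 11.32 in the Rnf146 libraries. All the eGFP values lay above all the Rnf146 values, which in pair-centred values is the same fact as 4 differences of 1 sign. The pair differences were -0.32, -0.42, -0.21 and -0.31. Their mean, -0.32 ± 0.09 (SD over 4 pairs), exceeded the spread between pairs. In each of the 4 pairs this was the lowest difference of the 10 genes. Only 0.352% of all genes had a lower mean difference. The call of *Smpd4* was lost without pair 2 and without pair 4. In those fits 42 and 14 of all genes were called, 3 and 0 of them lower. The mean difference of *Smpd4* stayed between -0.35 and -0.28 with any 1 pair left out. In bulk tissue, fewer cells of a type and less RNA per cell cannot be told apart. No protein-coding gene overlaps *Smpd4* in the GENCODE annotation.

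*Smpd1* (chromosome 7, 105203564 to 105207597, plus strand) encodes the acid sphingomyelinase of lysosomes. Its values were 11.53, 11.44, 11.50 and 11.51 in eGFP libraries and 11.45, 11.54, 11.47 and 11.46 in Rnf146 libraries. The groups overlapped, and the mean difference of -0.01 ± 0.08 (SD over 4 pairs) lay within the spread. *Smpd2* (chromosome 10, 41361638 to 41366481, minus strand) encodes neutral sphingomyelinase 1. Its differences of -0.13, 0.06, 0.07 and -0.05 averaged -0.01 ± 0.10, again within the spread. *Smpd2* overlaps *Mical1* and *Ppil6* on the other strand, whose mean differences were -0.14 and 0.02. The strand setting of the authors' quantification is not given in the sources used here, so reads of overlapping genes may not be fully told apart.

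*Smpd3* (chromosome 8, 106979176 to 107064670, minus strand) encodes neutral sphingomyelinase 2, which is abundant in neurons and takes part in the release of exosomes. Its values were 11.35, 11.17, 11.41 and 11.36 in eGFP libraries and 11.43, 11.61, 11.36 and 11.41 in Rnf146 libraries. The groups overlapped, and pair 2 held the widest difference. The differences were 0.08, 0.44, -0.05 and 0.05, and the mean of 0.13 ± 0.21 (SD over 4 pairs) was 0.03 without pair 2. The difference between *Smpd4* and *Smpd3* within a pair was -0.41, -0.85, -0.16 and -0.36, so *Smpd4* had the lower difference in every pair. *Prmt7*, which overlaps *Smpd3* on the other strand, had a mean difference of -0.05.

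**Figure D1:**
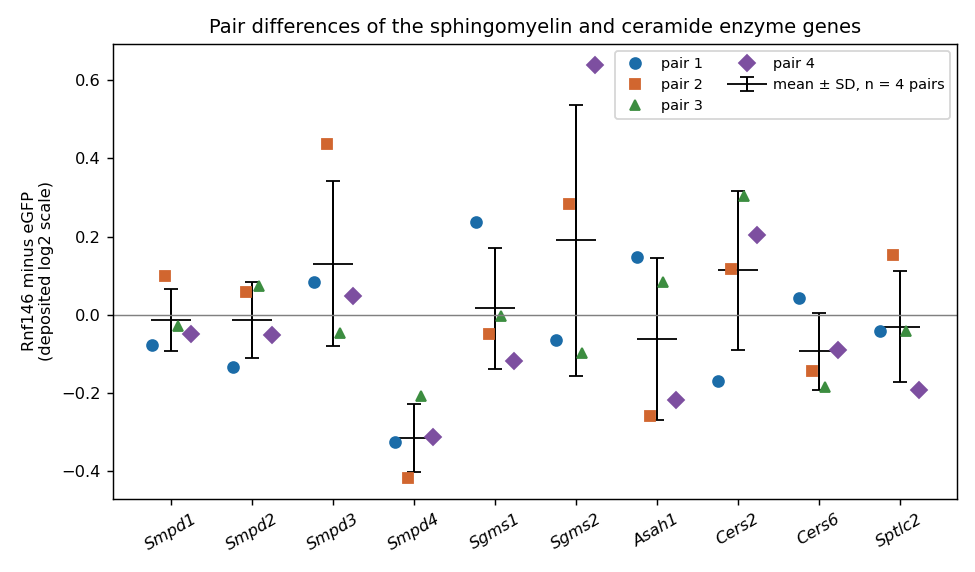
Rnf146-minus-eGFP difference of the 10 genes on the deposited log2 scale (vertical axis), with 1 point per pair of libraries and black bars for the mean ± SD (n = 4 pairs). *Smpd4* lies between -0.42 and -0.21 in all 4 pairs, and the points of the other 9 genes fall on both sides of 0.

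The sphingomyelin synthases had wide spreads. *Sgms1* (chromosome 19, 32097497 to 32367505, minus strand) encodes the enzyme of the Golgi apparatus, which makes most sphingomyelin. Its differences were 0.24, -0.05, -0.0039 and -0.12, averaging 0.02 ± 0.15 (SD over 4 pairs), and the 2 groups overlapped. *Sgms2* (chromosome 3, 131112634 to 131197172, minus strand) encodes the enzyme found at the plasma membrane. Its values were 8.54, 8.36, 8.55 and 8.19 in eGFP libraries and 8.47, 8.65, 8.46 and 8.83 in Rnf146 libraries, close to the floor of the scale. The differences were -0.07, 0.28, -0.10 and 0.64, so that pairs 2 and 4 were higher and pairs 1 and 3 lower in Rnf146 libraries. The mean of 0.19 ± 0.35 was smaller than the spread, and it was 0.04 without pair 4.

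*Asah1* (chromosome 8, 41792846 to 41827851, minus strand) encodes the acid ceramidase of lysosomes. Its values were 10.58, 10.78, 10.61 and 10.76 in eGFP libraries and 10.73, 10.52, 10.69 and 10.54 in Rnf146 libraries. The differences of 0.15, -0.26, 0.08 and -0.22 were split by pair, positive in pairs 1 and 3 and negative in pairs 2 and 4. Their mean was -0.06 ± 0.21 (SD, n = 4 pairs). *Smpd1*, whose product works in the same compartment and delivers the ceramide that acid ceramidase splits, had the opposite sign to *Asah1* in pairs 1, 2 and 3.

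The 2 ceramide synthases had means on either side of 0, and neither was called. *Cers2* (chromosome 3, 95221790 to 95234060, plus strand) attaches very long fatty acids and is the main form in oligodendrocytes. Its values were 10.73, 10.59, 10.49 and 10.54 in eGFP libraries and 10.56, 10.70, 10.80 and 10.75 in Rnf146 libraries. Pair 1 was lower and the other 3 pairs were higher in Rnf146 libraries, with differences of -0.17, 0.12, 0.30 and 0.21 that averaged 0.11 ± 0.20 (SD over 4 pairs). Without pair 1 the mean was 0.21. *Setdb1*, which overlaps *Cers2* on the other strand, had a mean difference of -0.04. *Cers6* (chromosome 2, 68691455 to 68944627, plus strand) makes ceramides with shorter chains. Its differences were 0.04, -0.14, -0.18 and -0.09, with a mean of -0.09 ± 0.10, and it had the opposite sign to *Cers2* in every pair.

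*Sptlc2* (chromosome 12, 87351832 to 87435267, minus strand) encodes the catalytic subunit of serine palmitoyltransferase, the first enzyme of the pathway. Its values were 10.38, 10.28, 10.38 and 10.46 in eGFP libraries and 10.34, 10.44, 10.34 and 10.26 in Rnf146 libraries. The differences were -0.04, 0.15, -0.04 and -0.19. Their mean of -0.03 ± 0.14 (SD over 4 pairs) lay within the spread.

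**Figure D2:**
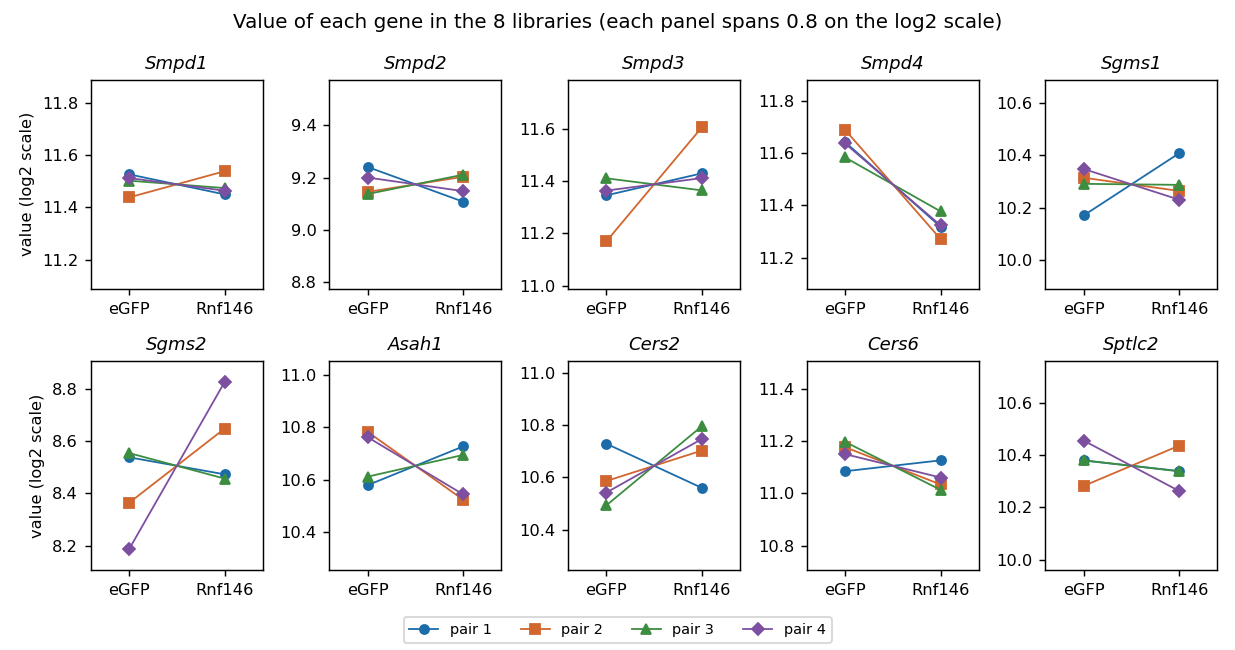
Value of each of the 10 genes in the 8 libraries on the deposited log2 scale (vertical axis), with a line joining the eGFP and Rnf146 library of each pair; every panel spans the same range. The lines of *Smpd4* all fall, from 11.58 to 11.69 in eGFP libraries to 11.27 to 11.38 in Rnf146 libraries, while those of each other gene run both up and down.

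Over the 10 genes, the mean differences ran from -0.32 to 0.19, 4 above and 6 below 0, with a median of -0.01 beside 0.00 for all genes. In 9 of the 10 genes the values of the 2 groups overlapped. The remaining gene, *Smpd4*, had the same direction in all 4 pairs, as 20.6% of all genes did. The spread between pairs was wide for several members. The median SD of the pair differences was 0.149 over the 10 genes and 0.098 over all genes, and 6 of the 10 genes had an SD above the median gene. Only 1.33% of all genes had a larger SD than *Sgms2*, 7.89% a larger one than *Smpd3*, 8.48% than *Asah1* and 9.08% than *Cers2*. *Smpd1* and *Smpd4* had SDs of 0.078 and 0.086, below the median gene.

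**Figure D3:**
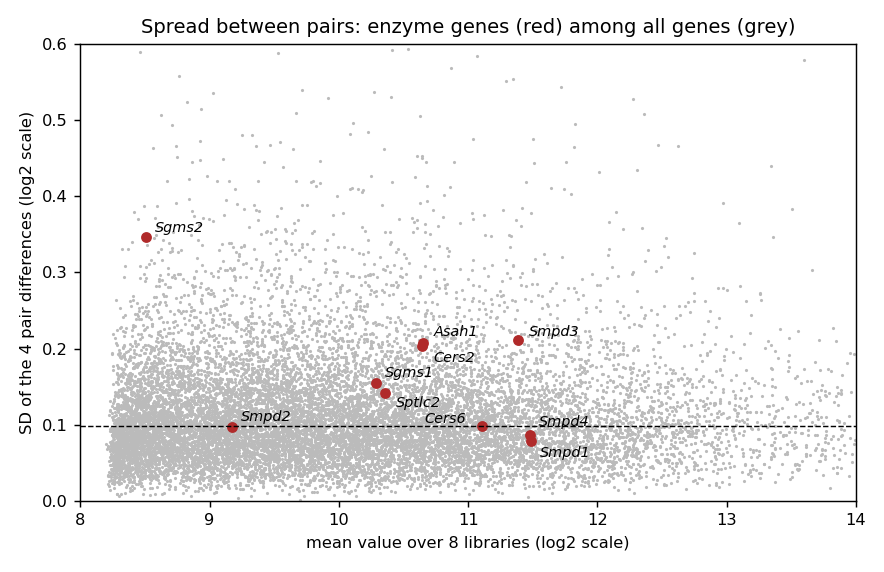
SD of the 4 pair differences (vertical axis) against the mean value over 8 libraries (horizontal axis), both on the deposited log2 scale, for all genes (grey) and the 10 genes (red); the dashed line is the median SD of all genes, 0.098, and 159 genes lie outside the axes. *Sgms2*, *Smpd3*, *Asah1* and *Cers2* lie at 0.20 or more, and *Smpd4* lies below the line.

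The other genes of the pathway were read from a list ordered by role, 61 genes in all, of which 53 had values and the other 8 were not analysed here. With limma and the pair as a block, 1 of these 53 genes was called, *St8sia5*, and it was lower, beside the 1.25% of all genes called. The median difference of the 53 genes was -0.015, with 26 genes above and 27 below 0. Of the 53, 8 had the same direction in all 4 pairs, beside 20.6% of all genes. At an unadjusted p under 0.05, limma gave 7 of the 53 genes and 1870 of all 15039 genes. The call of *St8sia5* was lost without pair 2, pair 3 or pair 4. In those fits 42, 169 and 14 of all genes were called, 3, 55 and 0 of them lower. With all pairs it was 188 genes, 65 of them lower. The mean difference of *St8sia5* stayed between -0.31 and -0.22 with any 1 pair left out. Without pair 1 there were 5 called genes, *Fa2h*, *S1pr5*, *Sgpp2*, *St8sia5* and *Ugt8a*, beside 2.8% of all genes in that fit.

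*St8sia5* encodes a sialyltransferase that adds sialic acid to complex gangliosides, the sialylated glycolipids of neuronal membranes. It lies on chromosome 18 (77272738 to 77348090, plus strand). Its values ran from 10.95 to 11.09 in eGFP libraries and from 10.63 to 10.77 in Rnf146 libraries, without overlap. It fell by 0.28 ± 0.13 on the log2 scale (SD over 4 pairs; limma, adjusted p = 0.092), with a difference of -0.45 in pair 1 and of -0.29, -0.18 and -0.19 in the others. All 12 listed genes of glycosphingolipid synthesis had values. Of the 12, 5 (beside 20.6% of all genes) had the same direction in all 4 pairs, 1 higher and 4 lower. Among these, *B4galnt1* had a difference of -0.13 ± 0.11 that was negative in all 4 pairs but did not pass the test (adjusted p = 0.348 from limma). *Ugcg*, which makes glucosylceramide from ceramide, had 0.09 ± 0.05, positive in all 4 pairs, with an adjusted p of 0.445 from limma.

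The partners of the 10 enzymes in ceramide synthesis had small differences. Of the 14 listed genes of this step, 11 had values, 0 were called and 1 had an unadjusted p under 0.05 from limma. That gene was *Cers4*, another ceramide synthase, at -0.12 ± 0.07 (SD, n = 4 pairs), negative in all 4 pairs. *Cers1*, the main ceramide synthase of neurons, had -0.06 ± 0.12, and *Cers5* had -0.09 ± 0.11. *Sptlc1* and *Sptssa*, the subunits that work with *Sptlc2*, had 0.04 and 0.08. The inhibitors *Ormdl1*, *Ormdl2* and *Ormdl3* lay between -0.05 and 0.01, and the sign of *Ormdl2* and *Ormdl3* was negative after quantile normalization. *Degs1*, the desaturase that completes ceramide, had 0.08 ± 0.06.

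Of the 4 genes of ceramide transfer and phosphorylation and the 2 sphingomyelinase relatives with values, 0 were called and 0 had an unadjusted p under 0.05 from limma. *Cert1*, which carries ceramide to the Golgi apparatus for *Sgms1*, had a difference of 0.10 ± 0.12 (SD, n = 4 pairs), and *Samd8*, a relative of the sphingomyelin synthases, had -0.03 ± 0.08. In the group of ceramidases and sphingosine 1-phosphate genes, 13 of 16 had values, 0 were called and 2 had an unadjusted p under 0.05 from limma, *Asah2* and *Sgpp2*. *Asah2*, the neutral ceramidase, had 0.15 ± 0.14 and was positive in all 4 pairs. *Sgpp2*, a phosphatase of sphingosine 1-phosphate, had -0.03, 0.28, 0.29 and 0.25. The ceramidase genes *Acer2* and *Acer3* had 0.02 ± 0.23 and 0.02 ± 0.20, and *Sgpl1*, the lyase that ends the pathway, had -0.03 ± 0.11. All 11 listed genes of glycosphingolipid breakdown had values, with 0 called and 0 at an unadjusted p under 0.05 from limma. Their mean differences ran from -0.09 to 0.04. Of the 11, 9 lay below 0, as did 7441 of all 15039 genes, and 0 had the same direction in all 4 pairs.

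**Figure D4:**
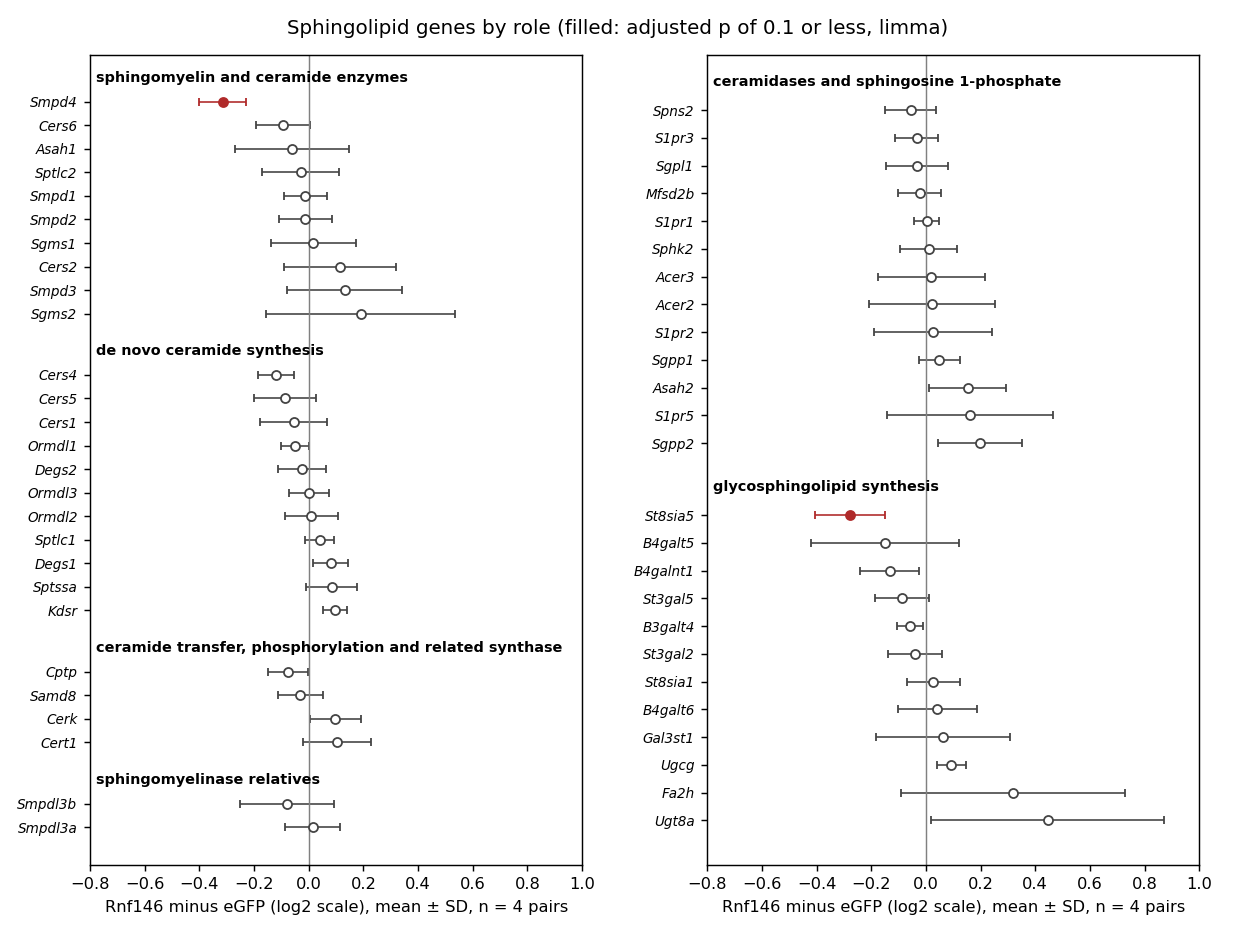
Mean Rnf146-minus-eGFP difference of the 10 genes and of the other sphingolipid genes, without those of glycosphingolipid breakdown, on the deposited log2 scale (horizontal axis), grouped by role, with bars for the SD of 4 pairs and filled points for genes called by limma, which for the 10 genes is a description. *Smpd4* at -0.32 and *St8sia5* at -0.28 are the filled points, and *Ugt8a* and *Fa2h* have the widest bars.

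Marker lists of the cell types in the tissue had differences that varied by pair. The 11 of 11 oligodendrocyte markers had mean differences of -0.11, 0.44, 0.89 and 0.52 in the 4 pairs. Their pair-centred mean per library ran from 11.50 to 11.997 in eGFP and from 11.89 to 12.39 in Rnf146 libraries. For this list and the others, the eGFP and Rnf146 ranges restate the 4 differences. They do not show how libraries of the same group varied. Among the 11 markers, *Mbp*, the gene of myelin basic protein, and *Mog*, the gene of a protein of the myelin surface, had mean differences of 0.51 ± 0.58 and 0.39 ± 0.31 (SD, n = 4 pairs). None of the 11 was called by limma, although all 11 had an unadjusted p under 0.05, as 1870 of all 15039 genes had. *Cers2* had the same order of pairs from lowest to highest as this list. So had *Ugt8a* and *Fa2h*, which make the galactosylceramide of myelin and its hydroxylated form, and *S1pr5*, a sphingosine 1-phosphate receptor of oligodendrocytes. The astrocyte list and *St8sia5* had this order too, so it is not particular to oligodendrocyte genes. The differences were -0.15, 0.48, 0.85 and 0.60 for *Ugt8a*, -0.24, 0.29, 0.71 and 0.51 for *Fa2h* and -0.28, 0.24, 0.40 and 0.28 for *S1pr5*. *Gal3st1*, which makes sulfatide, had -0.30, 0.15, 0.13 and 0.26. The part of oligodendrocyte content in the values of *Cers2* was not tested.

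The 10 of 10 markers of cortical excitatory neurons had mean differences of -0.21, -0.34, -0.05 and -0.18 in the 4 pairs. Of these markers, 2 were called lower, beside 0.432% of all genes. *Slc17a7*, the vesicular glutamate transporter, was among those called, at -0.30 ± 0.14 (SD, n = 4 pairs). The pair-centred mean of this list per library ran from 11.73 to 11.88 in eGFP and from 11.53 to 11.68 in Rnf146 libraries. The 8 of 8 microglia markers had -0.21, -0.30, -0.12 and -0.20, with 2 called lower and 7 of 8 negative in all 4 pairs. Of all 15039 genes, 1535 were negative in all 4 pairs. The pair-centred mean of the microglia list ran from 10.21 to 10.30 in eGFP and from 10.004 to 10.09 in Rnf146 libraries. Among the microglia markers, *Cx3cr1*, the fractalkine receptor, had -0.08 ± 0.05 and did not pass the test. *Smpd4* was lowest in pair 2 and highest in pair 3, as were both lists. The endothelial list, with differences from -0.05 to 0.08, had the same order too. In every pair the difference of *Smpd4* was below the mean of either the excitatory or the microglia list. Single markers had mean differences from -0.35 to 0.0019 in the excitatory list and from -0.35 to -0.08 in the microglia list. The lowest marker of each list was thus below the -0.32 of *Smpd4*. Whether neuron or microglia content had a part in the value of *Smpd4* was not tested.

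The 11 of 11 markers of striatal neurons had mean differences of -0.11, 1.30, 0.68 and 0.29. Their pair-centred mean per library ran from 10.24 to 10.95 in eGFP and from 10.84 to 11.54 in Rnf146 libraries. Pair 2, with the largest difference of this list, was also the pair in which *Smpd1*, *Smpd3* and *Sptlc2* had their highest difference, of 0.10, 0.44 and 0.15. Of these, *Smpd1* had the full order of pairs of the striatal list, and the other 2 matched it in the highest pair alone. Without pair 2, the means of the 3 genes were -0.05, 0.03 and -0.09. The pair means of the 8 of 8 astrocyte markers ran from -0.07 to 0.06, and those of the 4 of 4 precursor markers from -0.06 to 0.10. Those of the 6 of 6 markers of inhibitory neurons ran from 0.11 to 0.28, with 3 called higher and the other 3 below 0. Of all 15039 genes, 123 were called higher. *Aqp4*, the water channel of astrocytes, had a mean difference of -0.04 ± 0.08, and *Drd1*, a dopamine receptor of striatal neurons, had 0.39 ± 0.50. No marker list was at the floor of the scale. The lowest mean value of a single marker was 8.64, in the microglia list, near the 8.51 of *Sgms2*. The difference of that marker may be compressed too. The genes set beside each list were picked after their values had been seen, and the part of these cells in the values was not tested.

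**Figure D5:**
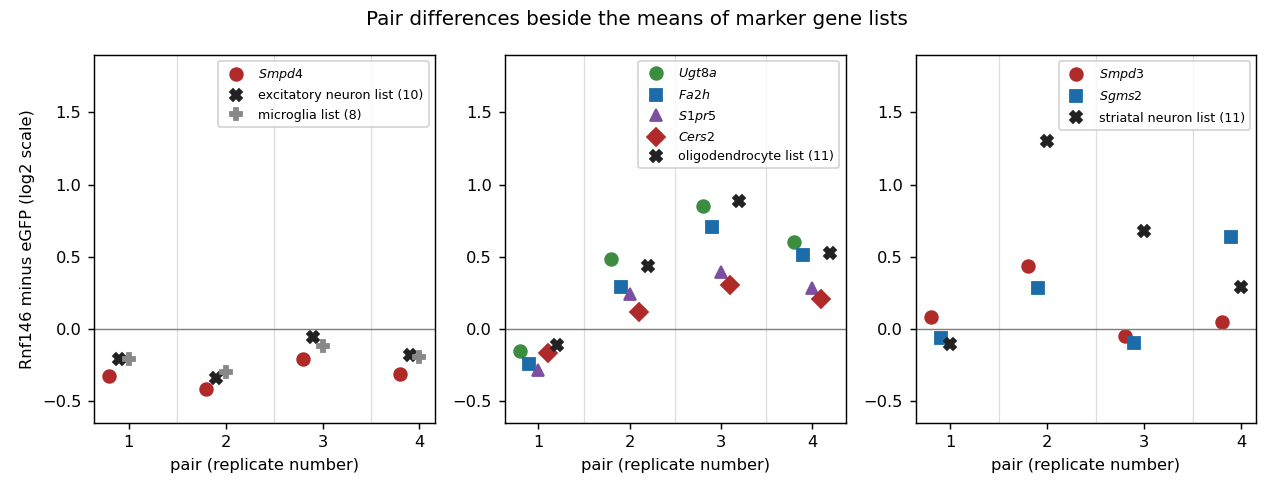
Rnf146-minus-eGFP difference (vertical axis, deposited log2 scale) in each of the 4 pairs (horizontal axis) for single genes and for the mean of marker lists, with the number of list genes in brackets. *Smpd4* lies below the means of the excitatory and microglia lists in every pair, though not below every single marker in its mean difference. *Cers2* with *Ugt8a*, *Fa2h* and *S1pr5* is lowest in pair 1 and highest in pair 3, as the oligodendrocyte list is. *Smpd3* is highest in pair 2, as the striatal list is.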

How the data were processed

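RNA sequencing covered 8 PFC libraries, 4 per group, with groups and replicate numbers from the sample labels. The library kit was TruSeq stranded mRNA. Cutadapt (trimming) and Salmon 1.9.0 (transcript quantification) were used by the authors, against GENCODE vM30 (GRCm39), and DESeq2 is named in the submitters' processing notes. The deposited values are log2 values per gene symbol, normalized and centred within same-numbered pairs. The transformation and the reason for the centring are not given in the sources used here. The table is called normalized counts, but holds no counts, so depth is unknown and no count test was run.

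Differences were fitted over all 15039 genes with limma 3.58.1 in R 4.3.3 (lmFit, eBayes with trend), the replicate number as a block, and Benjamini-Hochberg adjustment, and a gene was called when its adjusted p was at most 0.1. The block is used because centring leaves each gene only 4 differences, and it has 3 residual degrees of freedom. Pairs are libraries with the same number in the labels, and the equal pair sums show the centring. The p-values measure the spread of the 4 pair differences among these libraries. The labels do not say that the libraries came from separate mice, so this spread may not be one between mice. With 4 pairs, exact sign flips cannot go below p = 0.125 (two-sided, 16 combinations) and were not used. The fit was also run on simulated data with known shifts, and the outcome is not reported here.

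The members, the pathway list and the marker lists were chosen with earlier results of these data known. The genes named are *Rnf146*, the 10 genes, the called pathway genes, the gene with the largest difference in each role among those with 1 direction in all 4 pairs, the direct partners of the 10 enzymes and 6 markers. *Ugt8a*, *Fa2h*, *Gal3st1*, *S1pr5*, *Sgpp2*, *B4galt5* and *B4galnt1* were named after their values were seen. Listed genes were found by symbol, in 1 case by a RefSeq synonym, and some are not reported here by name. Gene positions on GRCm39 were read from GENCODE vM39. The alternatives were no block, median centring, quantile normalization, a minimum mean value of 9, no variance trend, a robust prior, array weights, an adjusted p of 0.05 and each pair left out, and, added after seeing the data, a correction of the pair differences for GC content and length of the longest transcript (found for 97.0% of genes). Python 3.11.15 with pandas 2.3.3 and matplotlib 3.10.9 was used otherwise.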

Additional observations from a re-analysis of the deposited data

Results flagged for a closer look

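Of 41 sets of 4 pair differences examined (the 10 genes, the named pathway genes and the marker lists), 2 had a pair far from the other 3. Chance alone gives about 1 in 20 for sets chosen without knowing the values. Both flagged genes were named after their values were seen, so the count cannot be set against that rate. *B4galt5*, which makes lactosylceramide, had a difference of -0.56 in pair 2, against -0.024 to -0.00099 in the rest. *Sgpp2* differed by -0.030 in pair 1, against 0.25 to 0.29 elsewhere. None of the 10 sphingomyelin and ceramide enzyme genes was among them.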

How the results depend on the processing

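Of 15039 genes, 188 were called with the replicate block, 3226 without the replicate block, 355 with array weights, 80 at an adjusted p of 0.05 or less, and 14 to 421 with 1 pair left out. The fit without the block treats the 8 centred values of a gene as separate, although they hold only 4 differences. Of the 10 genes, 1 was called with the block, 2 without it (*Smpd4* and *Cers6*) and 0 to 1 with 1 pair left out. Of the 53 pathway genes, 1 was called with the block, 10 without it, 2 with array weights, 0 at an adjusted p of 0.05 or less, and 0 to 5 with 1 pair left out. *Smpd4* was called under each of the other settings that keep all pairs. Small means of 5 of the 10 genes changed sign under some settings. After the GC and length correction, *Smpd1* was 0.015, *Smpd2* 0.012 and *Sgms1* -0.0031, and with array weights *Sgms1* was -0.017. Without pair 1, *Smpd1* was 0.0078, *Smpd2* 0.027 and *Sgms1* -0.057. Without pair 2, *Asah1* was 0.0043, and without pair 4, *Sptlc2* was 0.024. Among the pathway genes, the mean was -0.0031 and -0.0028 for *Ormdl2* and *Ormdl3* after quantile normalization, -0.0061 and -0.019 for *Ormdl2* and *Acer3* after the GC and length correction, and -0.0035 for *Ormdl3* with array weights. The cause was not tested. With 1 pair left out, *Ormdl2* ran from -0.029 to 0.047, *Ormdl3* from -0.028 to 0.023, *Samd8* from -0.065 to 0.0026, *Cers1* from -0.091 to 0.00080, *Sgpl1* from -0.082 to 0.00063, *Acer2* from -0.040 to 0.13, *Acer3* from -0.037 to 0.083 and *Gal3st1* from -0.0041 to 0.18. *Sgms2* has a mean value under 9 and gave no value under that filter. Depth is unknown, so the precision that counting gives could not be stated.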
